A study of Mus musculus with 6 samples.

Results

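The MyD88 signalling module was described in mouse primary keratinocytes through 10 genes taken by symbol: the adaptor Myd88, the kinases and pseudokinases Irak1, Irak2, Irak3 and Irak4, the ubiquitin ligase Traf6, the kinase Map3k7 (TAK1), its partners Tab1 and Tab2, and the inhibitor Tollip. All 10 were found among the 52550 genes of the deposited tables, with 65 of the 131146 transcripts. The cells came from the epidermis of wild-type C57BL/6 mice aged 0 to 2 days and were cultured for 2 days. The 3 libraries of the untreated group received no cytokine, and the 3 libraries of the IL-33 group were exposed to the recombinant protein for 12 h. The dose is not labelled, and neither is whether replicates were grown from different animals or dishes; the p-values therefore speak to library-to-library spread alone, part of which may be technical.

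IL-33 is a cytokine of the IL-1 family that binds ST2, encoded by Il1rl1, together with the co-receptor chain encoded by Il1rap. The paired receptor tails recruit MyD88, which assembles IRAK4 and then IRAK1 and IRAK2 into a signalling platform. TRAF6 joins this platform and builds ubiquitin chains, which TAB2 binds to bring in the kinase TAK1, and TAK1 then activates the IKK and MAP kinase branches. IRAK3, also called IRAK-M, and Tollip are known mainly as restraints on this route, which Toll-like receptors share.

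The libraries held 34188173 to 45266298 deposited counts, about 8547043 to 11316574 sequenced fragments at an estimated 4 counts per fragment. Basal keratinocyte markers summed to 35203 to 36290.3 CPM (counts scaled to the library's total) in untreated and 35346 to 37969 CPM in IL-33 libraries, and suprabasal markers to 16.7 to 17.3 and 14.1 to 17.5 CPM. Of 5 tested suprabasal genes 1, Krt1, had a log2 fold change above 0 (50.5% of all tested genes had). Krt1 stood at 1.45 ± 0.544 and 2.77 ± 1.2999 CPM, and Ivl at 5.72 ± 0.527 and 4.07 ± 1.00 CPM (SD, n = 3 per group). Both were named after their values were seen, and neither passed the edgeR test (adjusted p = 0.74 for both). Leukocyte markers summed to 29.2 to 34.9 CPM untreated and 33.9 to 36.4 CPM with IL-33. Nearly all of that sum was Cd68 and Csf1r. Of the 11 markers, Itgam, Cd207, Cd3e and Cpa3 were at 0 in all 6 libraries, and Ptprc, Adgre1, Fcer1g and Tyrobp were each at 0 in at least 3 of them and at 0.362 CPM or less in the others. Melanocyte markers summed to 1111 to 1163 and 1112 to 1206 CPM, fibroblast markers to 33.4 to 41.4 and 29.6 to 33.8 CPM, and endothelial markers to 13.5 to 19.8 and 16.3 to 17.1 CPM. Of 7 tested basal genes 2 had a log2 fold change above 0, as had 3 of 6 fibroblast genes (50.5% of all tested genes had). The basal gene Itgb4 stood at 1120 ± 9.997 and 954 ± 90.2 CPM, and the more abundant basal gene Krt5 went the other way, from 18034 ± 242 to 18995 ± 753 CPM. The fibroblast gene Col1a1 stood at 7.70 ± 4.31 and 3.38 ± 0.887 CPM. All were named after their values were seen, and none passed the edgeR test (adjusted p = 0.575 for Itgb4, 0.750 for Krt5 and 0.740 for Col1a1). In such bulk samples fewer cells of a type and less RNA per cell cannot be told apart.

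The comparison asks whether RNA of this signalling module differs between keratinocytes with and without IL-33. None of the 10 genes passed edgeR's quasi-likelihood test at an adjusted p under 0.05 over 15778 tested genes, a threshold that 0.0697% of those genes passed. DESeq2 called none of the 10 either, and none had an unadjusted p under 0.05, against 6.74% of all genes. Of the 10, 7 had a log2 fold change above 0 (50.5% of all tested genes), with a median of 0.10 against 0.00 over all genes. In Irak1 and Tab2 every IL-33 library lay above every untreated library, an order that 7.39% of all genes showed in that direction and 13.7% in either. The precision differed widely between the genes: the 95% interval of the fold ran from 0.938 to 1.16 for Traf6 and from 0.589 to 2.19 for Map3k7.

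**Figure D1:**
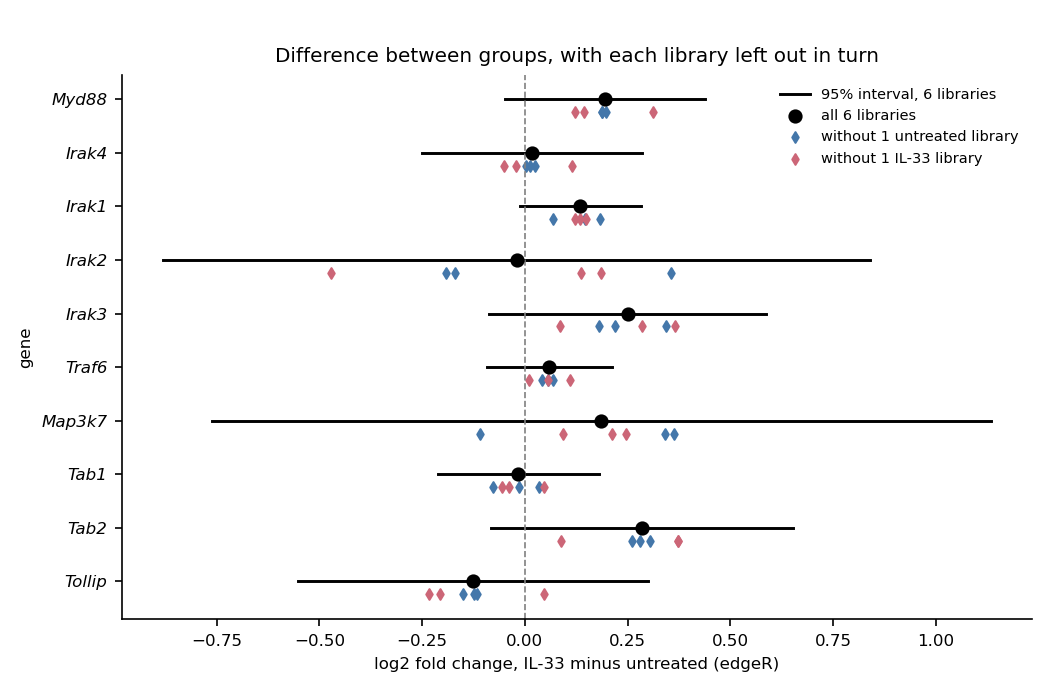
Log2 fold change of each gene (x axis, IL-33 minus untreated, edgeR) by gene (y axis); black points and bars are the estimate and its 95% interval from 6 libraries, and small diamonds are the estimates with 1 untreated (blue) or 1 IL-33 (red) library left out. Every 6-library interval drawn here, from the fit without a replicate block, spans 0. The estimates of Irak2, Irak4, Map3k7, Tab1 and Tollip change sign when certain single libraries are removed.

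Myd88 (ENSMUSG00000032508.8, GRCm38 chromosome 9, 119335934 to 119341411) encodes the adaptor on which the complex is built. It stood at 26.1, 25.7 and 25.5 CPM in the untreated libraries and at 31.5, 32.4 and 24.6 CPM in IL-33 replicates 1, 2 and 3. The untreated libraries lay close together, 2 IL-33 libraries lay above them, and IL-33 replicate 3 was the lowest of all 6, so the groups overlapped. The group values were 25.7 ± 0.296 and 29.5 ± 4.25 CPM (SD, n = 3 per group), with a log2 fold change of 0.19 (95% interval -0.05 to 0.44, edgeR adjusted p = 0.777). With single libraries left out it ran from 0.12 without IL-33 replicate 2 to 0.31 without IL-33 replicate 3 (0.12 to 0.51, edgeR adjusted p = 0.258). The full-length transcript Myd88-201, which encodes 296 amino acids, held 94.6% to 99.6% of the gene's counts in every library. It shares 223 of its 1960 bases with exons of Acaa1a, a gene on the opposite strand, and whether counting used strand is not stated by any label, so the share of such reads cannot be told apart.

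**Figure D2:**
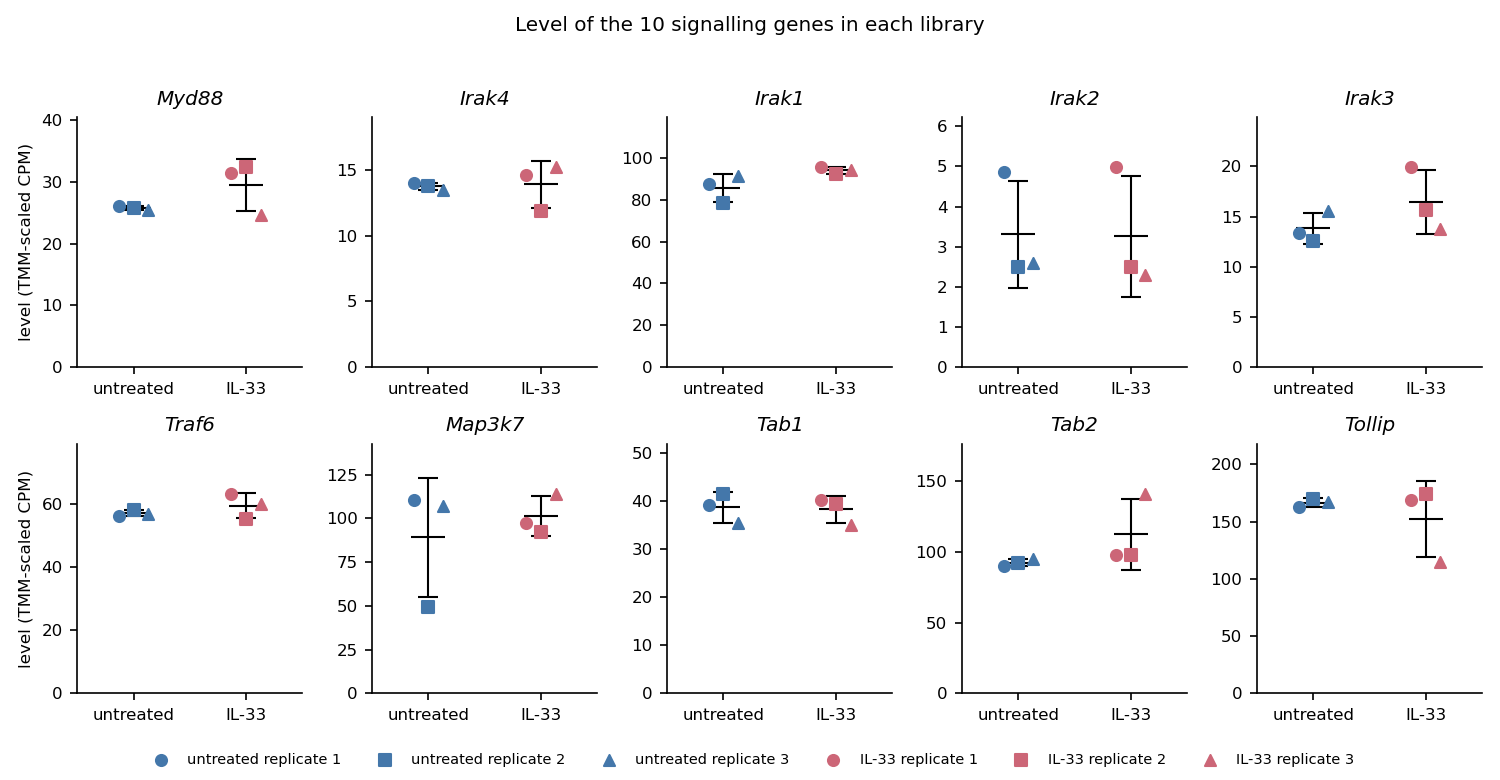
Level of each gene (y axis, TMM-scaled CPM, from 0) in the untreated and IL-33 groups; each symbol is 1 library, with its shape marking the replicate number, and bars are the mean and SD of 3 libraries. Untreated replicate 2 sits apart for Map3k7, IL-33 replicate 3 for Tab2 and Tollip, and both libraries numbered 1 lie above the others for Irak2.

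Irak4 (ENSMUSG00000059883.16, chromosome 15, 94543643 to 94581815) encodes the kinase that binds MyD88 first. Its level was 14.03, 13.8 and 13.5 CPM untreated and 14.7, 11.9 and 15.2 CPM with IL-33. The IL-33 libraries lay on both sides of the untreated ones (log2 fold change of 0.02 with 95% bounds of -0.25 and 0.29, edgeR adjusted p = 0.985). Most of its counts were assigned to Irak4-201, which measured 10.6 ± 0.810 CPM in untreated and 10.6 ± 0.592 CPM in treated libraries. The transcript Irak4-202, which ends in another last exon and encodes 453 rather than 459 amino acids, held 19.6%, 12.3% and 28.5% of the counts untreated and 22.05%, 10.3% and 23.6% with IL-33. That share therefore varied more within each group than between the group means of 20.1% and 18.7%. The last exon of Irak4-202 overlaps exons of Twf1 on the opposite strand over 395 of its 1928 bases, and Twf1 had 4991 to 6344 deposited counts against 406 to 673 for Irak4.

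Irak1 (ENSMUSG00000031392.18, chromosome X, 74013914 to 74023918) encodes the kinase that IRAK4 phosphorylates. It stood at 87.6, 78.3 and 91.2 CPM untreated and at 95.6, 92.2 and 94.4 CPM with IL-33. All IL-33 libraries were above all untreated ones, by a margin smaller than the spread among the untreated libraries. The log2 fold change was 0.13 (95% interval -0.01 to 0.28, edgeR adjusted p = 0.763). With single libraries left out it ran from 0.07 without untreated replicate 2 to 0.18 without untreated replicate 3 (0.03 to 0.34, edgeR adjusted p = 0.606). Of the 10 genes Irak1 had the smallest unadjusted p. The genes whose centred log2 CPM followed it most closely over the 6 libraries, among 10958 ranked, were Tpm1, the processed pseudogene Ywhaq-ps3 and Nsmce4a, with root mean square differences of 0.02, 0.03 and 0.03 against a range of 0.29 for Irak1.

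Irak1 was also the gene with the most transcripts, 22 in the table, of which 14 had a count in every library and 1 was at 0 in all. Most of its counts were shared by Irak1-201, Irak1-204 and Irak1-206. Their coding sequences are separated by an exon of 117 bases, exon 12 of Irak1-201, and by 3 bases at the start of exon 5. Both sequences are shown because they are the protein-level difference between the transcripts whose shares varied, with the 3 bases that Irak1-204 lacks in capitals (GENCODE M21 transcripts, GRCm38, minus strand).
Irak1 exon 12 of Irak1-201, chrX:74017901-74018017: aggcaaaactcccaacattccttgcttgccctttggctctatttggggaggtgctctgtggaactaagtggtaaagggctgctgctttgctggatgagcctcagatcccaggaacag
Irak1 start of exon 5 of Irak1-206, chrX:74022638-74022664: CAGtcaagcccagagagcccagtgtct

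The exon of 117 bases adds 39 codons, so that Irak1-201 encodes 750 amino acids, against 711 for Irak1-206 and 710 for Irak1-204. Irak1-201 held 10.5%, 22.6% and 33.3% of the gene's counts untreated and 24.6%, 21.5% and 26.1% under IL-33. The untreated values spanned the whole range of the IL-33 libraries. Irak1-204 and Irak1-206 together held 67.7%, 43.5% and 45.7% untreated and 48.2%, 53.1% and 47.7% with IL-33. Irak1-201 measured 19.3 ± 10.8 CPM in untreated and 22.8 ± 2.69 CPM in treated libraries (edgeR adjusted p = 1.00). Transcripts annotated as retaining an intron made up 9.72% to 20.2% of Irak1 counts untreated and 15.3% to 17.4% with IL-33.

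Irak2 (ENSMUSG00000060477.14, chromosome 6, 113638467 to 113695026) encodes a second IRAK that joins the MyD88 complex and lies on the route to TRAF6. It was the scarcest of the 10 genes, at 4.85, 2.49 and 2.58 CPM untreated and 4.98, 2.50 and 2.29 CPM with IL-33. The libraries numbered 1 in each group were about as high as each other, and the other 4 lay well below them. As fragments these were 54 (exact Poisson 95% interval 40.6 to 70.5) and 55 (41.4 to 71.6) in the libraries numbered 1, against 21 to 29 in the other 4. The interval covers counting error only, and the count of 4 per fragment is an estimate. The log2 fold change was -0.02 (edgeR adjusted p = 0.994). The 95% interval of the fold reached from 0.543 to 1.79, so changes within that range are not excluded by these libraries. With the replicate number as a block the log2 interval was -0.52 to 0.43, against -0.88 to 0.84 without it. The labels do not say that the number marks a shared culture or day.

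The Irak2 counts were assigned to different transcripts in the libraries numbered 1. Among the coding transcripts, Irak2-203 lacks exon 2 and Irak2-202 lacks exon 3 of Irak2-201. Irak2-203 also differs from Irak2-201 outside exon 2, with 551 against 622 codons and 1734 against 3196 bases. Exons 2 and 3 are shown because they help to set the transcripts apart. Both are coding and keep the reading frame, with 61 and 48 codons (GENCODE M21, GRCm38, plus strand).
Irak2 exon 2, chr6:113647639-113647821: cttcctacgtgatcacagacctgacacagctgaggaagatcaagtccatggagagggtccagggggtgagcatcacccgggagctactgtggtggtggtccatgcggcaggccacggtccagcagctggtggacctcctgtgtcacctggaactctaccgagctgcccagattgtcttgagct
Irak2 exon 3, chr6:113665703-113665846: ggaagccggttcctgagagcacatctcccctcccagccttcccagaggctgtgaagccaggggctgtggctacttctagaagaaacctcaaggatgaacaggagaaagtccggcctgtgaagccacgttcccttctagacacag

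In untreated replicate 1, Irak2-202, without exon 3, was listed at 169 of the gene's 217 deposited counts, while in IL-33 replicate 1 it was at 0 and Irak2-201, with both exons, held 148 of 219. Irak2-202 was at 0 in 4 of the 6 libraries and at 22 counts in IL-33 replicate 3. Irak2-203, without exon 2, had the steadiest level of the 3, 0.467 ± 0.0653 CPM in untreated and 0.447 ± 0.124 CPM in treated libraries. It had 15 to 24 counts per library, just above the floor of 12 counts, or 3 fragments, used here as the limit that a count of 0 allows. The retained-intron transcript Irak2-204 was at 43 counts in IL-33 replicate 1, at 3 in untreated replicate 1 and at 0 in the other 4.

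Irak3 (ENSMUSG00000020227.10, chromosome 10, 120141648 to 120202130) encodes IRAK-M, a pseudokinase known from macrophages as a brake on IRAK signalling. It was detected in every library, at 13.4, 12.6 and 15.6 CPM untreated and 19.9, 15.6 and 13.8 CPM with IL-33. IL-33 replicate 1 was the highest and the other 2 IL-33 libraries overlapped the untreated range. The log2 fold change was 0.25 (95% interval -0.09 to 0.59, edgeR adjusted p = 0.793). With single libraries left out it ran from 0.09 without IL-33 replicate 1 to 0.37 without IL-33 replicate 3 (0.04 to 0.70, edgeR adjusted p = 0.496). The pan-leukocyte gene Ptprc was at 0 in 5 libraries and at 0.16 CPM, under the floor, in IL-33 replicate 3. Lyz2, abundant in macrophages, ranged from 0 to 2.94 CPM. The macrophage-associated genes Csf1r and Cd68 stood at 9.01 to 11.3 and 20.03 to 24.8 CPM, and the part of such cells in the Irak3 level was not tested. Irak3-201 held 96.99%, 75.8% and 91.2% of the counts untreated and 91.9%, 91.2% and 90.95% with IL-33, and the drop in untreated replicate 2 was matched by the retained-intron transcripts, at 21.2% there.

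Traf6 (ENSMUSG00000027164.8, chromosome 2, 101678429 to 101701669) encodes the ubiquitin ligase through which the IRAK complex reaches TAK1. It stood at 56.2, 58.3 and 57.0 CPM untreated and at 63.4, 55.3 and 60.02 CPM with IL-33. The IL-33 libraries reached both above and below the untreated ones. With a log2 fold change of 0.06 (95% interval -0.09 to 0.21, edgeR adjusted p = 0.901), it had 1 of the 2 narrowest intervals of the 10 genes. Traf6-201 held 96.1% to 98.3% of its counts.

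Map3k7 (ENSMUSG00000028284.13, chromosome 4, 31964097 to 32023467) encodes TAK1. It stood at 110.5, 49.6 and 107.1 CPM in untreated replicates 1, 2 and 3 and at 97.4, 92.4 and 114.1 CPM with IL-33. Untreated replicate 2 was at 0.475 of the mean of the other 5 libraries, which lay between 92.4 and 114.1 CPM. With all libraries the log2 fold change was 0.19 (95% interval -0.76 to 1.13, edgeR adjusted p = 0.95). Without untreated replicate 2 it was -0.11 with a much narrower interval of -0.32 to 0.10 (edgeR adjusted p = 0.934).

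In the deposited estimates the low value of Map3k7 in untreated replicate 2 was assigned to a single transcript. Map3k7-202, the main transcript, was at 1666 deposited counts there, against 2990 to 4716 in the other libraries. Map3k7-201 was at 322 counts there, against 154 to 339. Map3k7-202 and Map3k7-201, of 5669 and 5773 bases, share most of their sequence, and how reads were divided between them was not tested. Their coding sequences are separated by an alternative exon, exon 12 of Map3k7-201. It is shown here because it defines the form whose estimate did not drop (GENCODE M21, GRCm38, plus strand).
Map3k7 exon 12 of Map3k7-201, chr4:31994874-31994954: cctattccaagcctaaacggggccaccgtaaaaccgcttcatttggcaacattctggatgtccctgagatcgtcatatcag

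This exon of 81 bases adds 27 codons, from 579 amino acids in Map3k7-202 to 606 in Map3k7-201. Coding transcripts that contain it held 4.07%, 16.2% and 7.04% of the counts of coding Map3k7 transcripts untreated, and 7.44%, 4.90% and 5.30% with IL-33. The form without the exon was thus the main one in all 6 libraries. The high share in untreated replicate 2 went with the low Map3k7-202 estimate there, since the estimated level of Map3k7-201 was 7.84 CPM in that library and 7.55 CPM in untreated replicate 3.

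**Figure D3:**
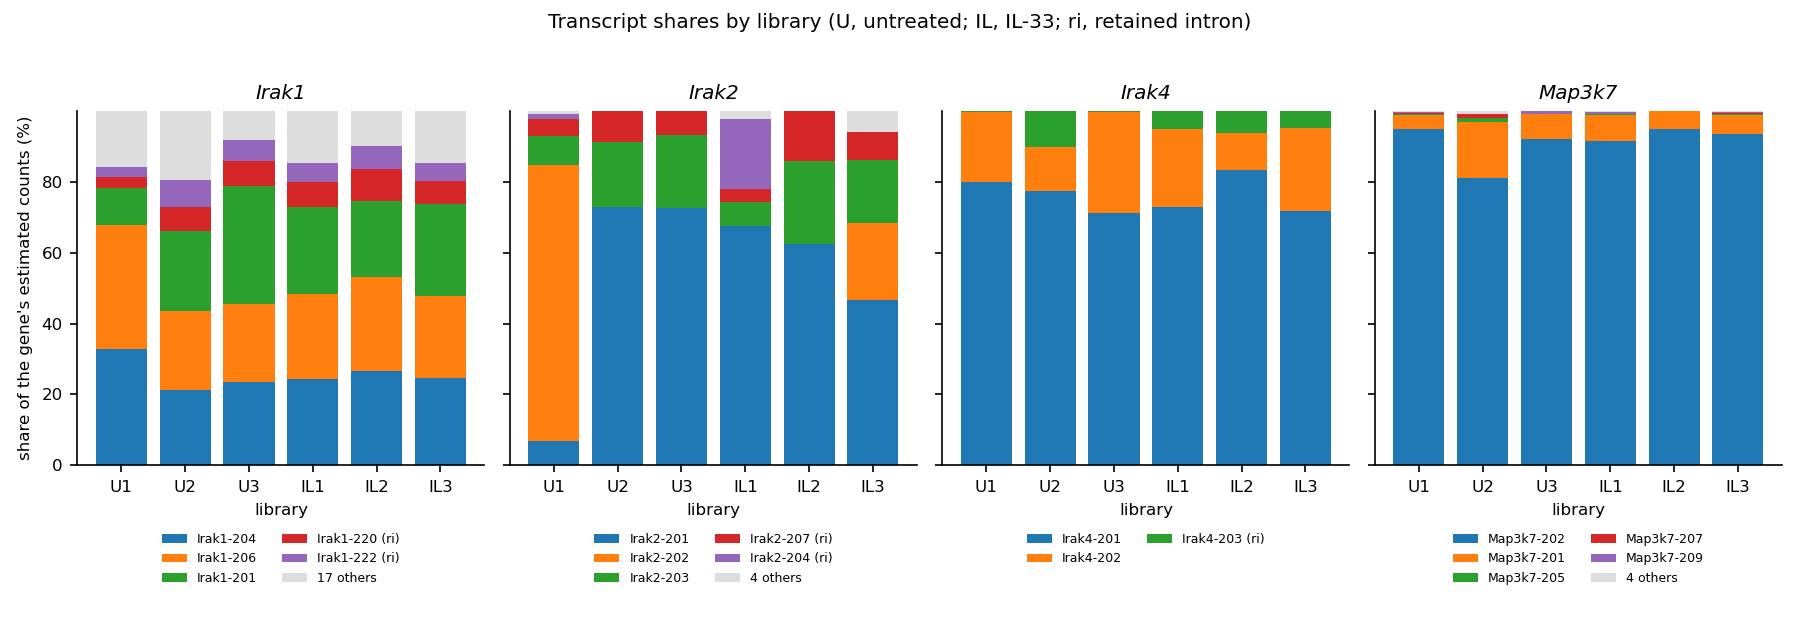
Share of each gene's estimated counts (y axis, %) assigned to its 5 most abundant transcripts and to the others, in each library (x axis; panels for Irak1, Irak2, Irak4 and Map3k7; U1 to U3 untreated, IL1 to IL3 IL-33 replicates). Irak2-202 takes most of Irak2 in untreated replicate 1 only, Irak1-201 ranges from 10.5% to 33.3% among untreated libraries, and Map3k7-202 is the main Map3k7 transcript in every library.

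Tab1 (ENSMUSG00000022414.7, chromosome 15, 80133127 to 80161707) encodes the TAK1 partner that promotes its activation. It has 1 transcript in the table and stood at 39.2, 41.6 and 35.4 CPM untreated and at 40.3, 39.5 and 35.1 CPM with IL-33. The groups overlapped over nearly their whole range, and the log2 fold change was -0.02 (95% interval -0.21 to 0.18, edgeR adjusted p = 0.982).

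Tab2 (ENSMUSG00000015755.16, chromosome 10, 7905653 to 7956230) encodes the TAK1 partner that binds the ubiquitin chains made by TRAF6. It stood at 89.7, 92.3 and 94.7 CPM untreated and at 98.03, 97.9 and 141.2 CPM with IL-33. IL-33 replicate 3 was 1.49 times the mean of the other 5 libraries, while the other 2 IL-33 libraries were only slightly above the highest untreated one. With all libraries the log2 fold change of Tab2 was 0.29 (95% interval -0.08 to 0.65, edgeR adjusted p = 0.777). It was 0.09 without IL-33 replicate 3 (-0.04 to 0.22, edgeR adjusted p = 0.711). Without IL-33 replicate 1 it was 0.37 (0.002 to 0.74, edgeR adjusted p = 0.820). Without IL-33 replicate 2 it was also 0.37 (-0.004 to 0.75, edgeR adjusted p = 0.943). With the replicate number as a block it was 0.26 (0.005 to 0.52, edgeR adjusted p = 0.763). The excess in IL-33 replicate 3 was in Tab2-204, at 139.6 CPM against 87.7 to 94.6 CPM elsewhere. Tab2-204 was also the single tested transcript of the 10 genes whose groups did not overlap.

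Tollip (ENSMUSG00000025139.14, chromosome 7, 141874813 to 141918507) encodes an adaptor that binds IRAK1 and is known to dampen receptor signalling. Its levels were 162.6, 170.2 and 167.3 CPM untreated and 169.2, 174.6 and 114.5 CPM with IL-33. IL-33 replicate 3 was at 0.678 of the mean of the other 5, which all lay between 162.6 and 174.6 CPM. The log2 fold change was -0.13 (95% interval -0.55 to 0.30, edgeR adjusted p = 0.922). Without IL-33 replicate 3 it was 0.05 (-0.06 to 0.15, edgeR adjusted p = 0.841). Tollip-201 held 97.6% to 98.9% of the counts in every library, so the low value was again that of the main transcript.

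Single libraries thus stood apart in Map3k7, Tab2 and Tollip. Measured as the gap between the most extreme library and its nearest neighbour in log2 CPM, Map3k7 had a gap of 0.90, Tab2 of 0.53 and Tollip of 0.51. Among the 7566 genes at 20 CPM or more, 0.70%, 1.90% and 2.01% had a gap as large. A gap of at least 0.5, a limit chosen after these values were seen, was found in 3 of the 7 signalling genes at that level and in 2.06% of all genes there. Each of the 6 libraries was the extreme one for some of these 156 genes; IL-33 replicate 3 was the high library for 6 and the low one for 23, and untreated replicate 2 was high for 8 and low for 22. The cause of these gaps was not tested.

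**Figure D4:**
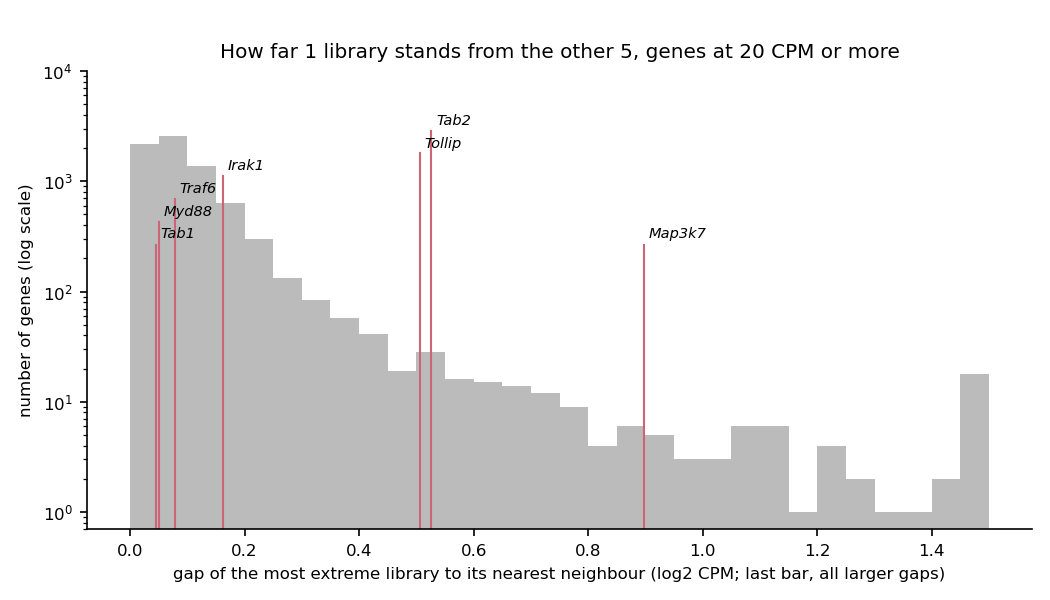
Number of genes at 20 CPM or more (y axis, log scale) by the gap in log2 CPM between the library farthest from the rest and its nearest neighbour (x axis), with red lines for the 7 signalling genes at that level. Map3k7 at 0.90 and Tab2 and Tollip at 0.53 and 0.51 lie in the thin right tail, and Irak1, Traf6, Myd88 and Tab1 lie under 0.2 with most genes.

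Levels were compared between genes per length, in deposited gene FPKM (fragments scaled to a length for each gene and to the library total) over all 6 libraries. Tollip was highest at 28.4 ± 4.02 FPKM (SD, n = 6), followed by Irak1 at 17.1 ± 1.23, Tab2 at 14.99 ± 2.81, Map3k7 at 13.3 ± 3.34 and Tab1 at 11.8 ± 0.820 FPKM. Myd88 stood at 9.63 ± 1.19, Traf6 at 6.65 ± 0.339, Irak3 at 3.70 ± 0.655, Irak4 at 2.48 ± 0.201 and Irak2 at 0.658 ± 0.259 FPKM. The ranges of Irak1 and Tab2, Tab2 and Map3k7, Map3k7 and Tab1, and Tab1 and Myd88 overlapped, and the other neighbouring pairs did not overlap. Compared library by library, the gene FPKM of Tab1 lay above that of Myd88 in all 6. The order within the other overlapping pairs changed between libraries and was not resolved. Some pairs that are not neighbours in the order of the means also overlapped. Tollip and Tab2 did: in IL-33 replicate 3 Tab2 stood at 20.6 FPKM and Tollip at 20.3 FPKM. Map3k7, at 6.91 to 15.9 FPKM over the 6 libraries, overlapped Irak1, Myd88 and Traf6 as well. When the FPKM of a gene's transcripts were summed in place of the gene value, Myd88 moved above Tab1 and the rest of the order stayed. The means by that sum were 34.4 FPKM for Irak1, 13.5 for Myd88 and 11.8 for Tab1, which has 1 transcript in the table. The order of Tab1 and Myd88 therefore depends on which value is used. Within the IRAK family, Irak1 made up 68.2% to 73.3% of the gene FPKM added over the family, Irak3 13.7% to 18.3%, Irak4 8.88% to 11.8% and Irak2 1.84% to 4.16%. The pseudokinase gene Irak3 was above the kinase gene Irak4 in all 6 libraries.

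Around these 10 genes, 75 other genes of the pathway were listed by role, of which 65 were tested and none passed the edgeR test over all genes, while 2 had an unadjusted p under 0.05 (6.74% of all tested genes did). The median log2 fold change of the 65 was 0.03, with 41 above 0 (50.5% of all tested genes were). Among 11 tested receptors 5 were above 0; Il1rl1 stood at 72.4 ± 1.42 and 71.4 ± 2.85 CPM, Il1rap at 36.7 ± 3.41 and 32.7 ± 0.767 CPM, and the IL-18 receptor chain gene Il18r1 at 3.18 ± 0.244 and 4.38 ± 1.43 CPM (SD, n = 3 per group). Tlr8, Tlr9 and Tlr11 were at 0 in all 6 libraries. Among the other adaptors and the Pellino ligases, which ubiquitinate IRAKs, 5 of 9 were above 0. Peli3 stood at 1.27 ± 0.321 and 1.69 ± 0.485 CPM, and the adaptor gene Sarm1 near the floor at 0.455 ± 0.190 and 0.261 ± 0.119 CPM.

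Of the 11 TRAF and ubiquitin genes 8 were above 0, with a median of 0.07. Rbck1, a subunit of the linear ubiquitin ligase, stood at 113.0 ± 8.64 and 125.3 ± 7.76 CPM (edgeR adjusted p = 0.763). Traf5 measured 2.38 ± 0.307 and 2.94 ± 0.305 CPM. Of the 15 genes of the IKK and MAP kinase branches 8 were above 0, with a median of 0.01. Mapk8, which encodes a JNK kinase, stood at 29.6 ± 1.51 and 25.4 ± 5.76 CPM, and Chuk, an IKK subunit, at 71.04 ± 1.94 and 65.5 ± 7.58 CPM. Of the 10 inhibitors 8 were above 0, with a median of 0.07. The MAP kinase phosphatase gene Dusp1 stood at 24.6 ± 1.45 and 21.7 ± 2.68 CPM, and Otulin, which removes linear ubiquitin, at 24.04 ± 1.95 and 26.8 ± 2.14 CPM.

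Among 9 tested genes that this route can induce, 7 were above 0 with a median of 0.12, and the 2 with an unadjusted p under 0.05 went in opposite directions. The chemokine gene Ccl20 stood at 2.44, 2.34 and 1.79 CPM untreated and 4.73, 3.46 and 6.43 CPM with IL-33 (edgeR adjusted p = 0.368). Ptgs2, the inducible cyclooxygenase, stood at 341.3, 315.3 and 330.2 CPM untreated and at 257.02, 247.3 and 291.3 CPM with IL-33 (edgeR adjusted p = 0.307). In both genes the groups did not overlap. Of the 65 tested genes, 2 had non-overlapping groups with IL-33 higher (Il1rl2, the IL-36 receptor gene, named after its values were seen, from 62.6 ± 2.72 to 67.8 ± 1.75 CPM, and Ccl20) and 2 with IL-33 lower (Il1rap and Ptgs2), against 7.39% and 6.26% of all tested genes.

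**Figure D5:**
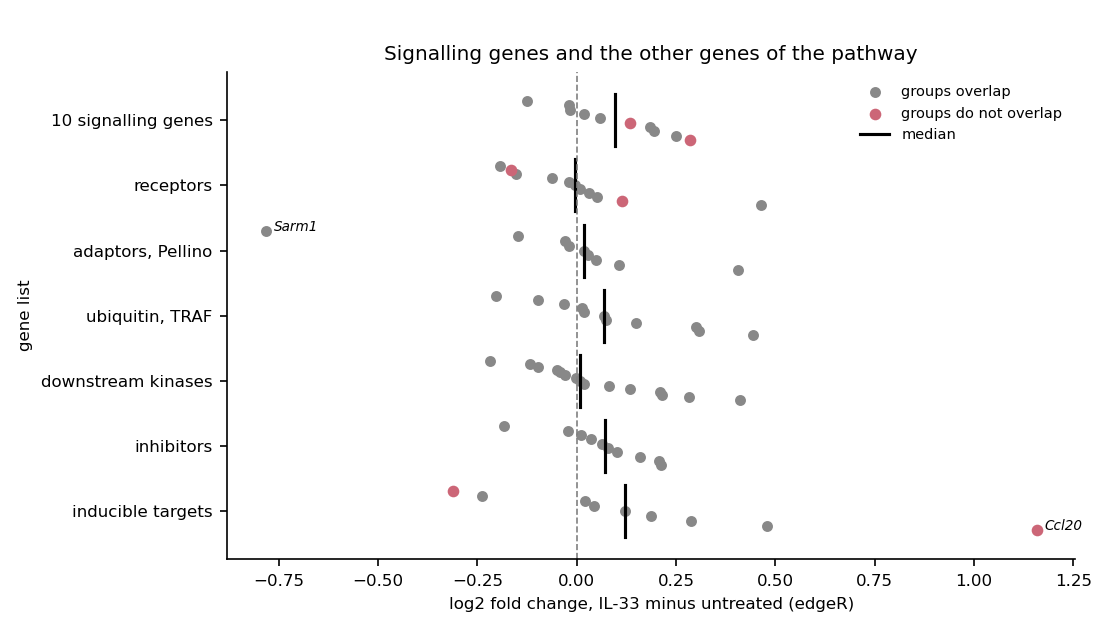
Log2 fold change (x axis, IL-33 minus untreated, edgeR) of each tested gene by list (y axis), with the list median as a black bar and red points for genes whose groups did not overlap. The medians lie between 0.00 and 0.12, and Ccl20 and Sarm1 lie farthest from 0 on either side.

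At the transcript level, 40 of the 65 transcripts of the 10 genes were tested and none passed (edgeR, 0.0299% of 40163 tested transcripts passed; DESeq2 also called none of the 59 it tested). None had an unadjusted p under 0.05, against 4.24% of all tested transcripts. The groups of 1 of the 40 did not overlap, against 11.3% of all. On simulated data this test missed all small and most large changes, so its lack of calls says little about these transcripts. In all, 39 of the 65 had a count in every library and 6 were at 0 in every library.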

How the data were processed

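Libraries were grouped by the labels, 3 untreated and 3 IL-33. Tools listed without roles in the submitters' processing notes are HISAT2 2.1.0, FastQC 0.11.7, DESeq2 1.18.1 and StringTie 1.3.4d, with build mm10. The authors deposited estimated counts per gene and transcript, whole numbers that needed no rounding, made by a step that no label or file header records; values pile up at multiples of 4 (in untreated replicate 1, 2209 transcripts at 4 counts, 1940 at 3 and 1854 at 5), taken as about 1 fragment. The deposited FPKM values are fragments scaled to length and library total, per the file headers; the gene FPKM was a median 0.844 of the sum of its transcripts. Gene counts equalled the transcript sum for all 10 genes.

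Of 52550 gene identifiers 52403 were given a symbol, matched without version. Positions and exon sequences are those of GENCODE M21 on GRCm38 (mm10), which holds 97.16% of the transcript identifiers with the same version.

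Groups were compared with edgeR 4.0.16 (R 4.3.3; quasi-likelihood, TMM, robust, filterByExpr minimum count 10), Benjamini-Hochberg adjusted over all tested features, threshold 0.05; log2 CPM used a prior count of 2. The members and lists were chosen with earlier results of these data known. Named by rule were all 10 genes, the 2 smallest p of each pathway list, Il1rl1 and Il1rap, and the 3 genes most like the gene with the smallest p. Outside that rule, Krt1, Ivl, Itgb4, Krt5, Col1a1 and Il1rl2 were named after their values were seen. Leukocyte markers, receptor genes at 0 in all libraries and overlapping genes were also named. All library pairs differed by more than sampling noise (median chi-square 1.89 to 2.78 times its sampling value). The tests were checked on simulated data: the gene test recovered part of the changes of moderate size, with some false calls, the transcript test recovered none of the small changes and few of the large ones, and a test of unequal change among a gene's transcripts made mostly false calls there and is not reported. Alternatives were RLE factors, library totals, DESeq2 1.42.0, limma-voom (limma 3.58.1), other filters, counts divided by 4, the replicate block, each library left out, and limma on log2(FPKM + 0.1) or log2(FPKM + 1) with FPKM of at least 0.5.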

Additional observations from a re-analysis of the deposited data

How the results depend on the processing

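In the 17 alternative fits, which gave 170 estimates for the 10 genes, none of these genes was called. No transcript of theirs was called in the 13 alternatives run at the transcript level. The tests of unequal transcript change were not run under alternatives, since that test made mostly false calls on simulated data. Same-numbered libraries did not deviate together (correlations of 0.09, 0.04 and -0.08 over 7566 genes), so the replicate block, under which 8 of all genes and 0 of the 10 were called, is only an alternative; not every library correlated best with its own number, and the block left 0 transcripts called over all transcripts, against 12. Over all genes 11 were called, against 71 with DESeq2, 17 with no low-count filter and 4 with limma on each FPKM setting, and 11 to 90 with a library left out (18 after dropping untreated replicate 3; 20 and 90 after dropping IL-33 replicates 1 and 3). Over all transcripts 12 were called, against 539 with DESeq2, 24 with limma on log2(FPKM + 0.1) and 6 to 28 with a library left out (6 after dropping untreated replicate 2; 7 and 28 after dropping IL-33 replicates 1 and 3). The cause was not tested. With a library left out, the median of the 10 genes ran from 0.048 to 0.17 (0.17 without untreated replicate 1), and log2 fold changes crossed 0 for Irak2 (-0.47 to 0.36), Irak4 (-0.050 to 0.12), Map3k7 (-0.11 to 0.36), Tab1 (-0.077 to 0.045) and Tollip (-0.23 to 0.046). Irak2 rests on 21 to 55 fragments per library, the fewest of the 10 genes, and its log2 interval was -0.52 to 0.43 under the replicate block. Under that block the log2 interval of Tab2 was 0.005 to 0.52, which did not span 0 (edgeR adjusted p = 0.763).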
